A study of Mus musculus with 12 samples.

Results

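The comparison set BV2 cells given oxyhaemoglobin (oxy-Hb) against BV2 cells given oxy-Hb together with the complement peptide C3a, over every gene of a deposited table of raw counts. BV2 is an immortalised mouse microglial line, grown here in DMEM with fetal bovine serum and antibiotics, so all libraries come from 1 line. Both groups received oxy-Hb at 10 µM, the haemoglobin that red cells release into bleeding brain tissue, and no group received C3a without it. The second group also received C3a at 20 ug/ul, a dose copied from the label whose unit is uncertain because it would be very high for a peptide. The comparison holds 6 of the 12 samples of the series, 3 in each group, with 22935 genes listed. Another 3 libraries of oxy-Hb with 50 µM C3aRA, an abbreviation that the labels leave unexplained, shared in the estimate of the spread and are set beside C3a at the end, while 3 samples given PBS were left out and are not analysed here. The series is about the C3 and C3aR pathway in experimental subarachnoid haemorrhage, and the comparison asks what the receptor's ligand adds to oxy-Hb in a microglial line. Neither the exposure time nor the origin of the replicates (separate cultures or not) is stated in the labels. The p-values therefore measure only how far these libraries scatter, and that scatter may be technical.

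C3a is cut from complement component C3 when complement is activated, and it binds C3aR, the product of C3ar1, a G protein-coupled receptor of microglia, macrophages and other myeloid cells. The receptor couples mainly to Gi proteins, which restrain adenylyl cyclase and release beta-gamma subunits that engage phospholipase C, phosphoinositide 3-kinase and Rac exchange factors. Signals of this kind reach the ERK cascade and the actin cytoskeleton, switch on immediate early genes, and induce their own brakes, among them dual-specificity phosphatases and regulators of G protein signalling (RGS proteins).

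Library totals were 15375073, 18184027 and 15889587 counts with oxy-Hb and 16987624, 20479002 and 17190773 counts with C3a, so that 3 counts, the limit that a count of 0 allows, equalled 0.146 to 0.195 CPM, the count scaled to the library total. C3a replicate 2 stood apart from its group. The SD across genes of its log2 difference was 0.521 from replicate 1 and 0.50 from replicate 3, against 0.252 between those 2 libraries and 0.208 to 0.251 among the oxy-Hb libraries. Its median log2 ratio to the oxy-Hb mean ran from 0.57 in the decile of genes with the shortest transcripts to -0.73 in the decile with the longest, while the same ratios ran from 0.02 to -0.04 in replicate 1 and from 0.09 to -0.08 in replicate 3. From the lowest to the highest decile of GC content the ratio went from 0.10 to -0.17 in replicate 1 and from 0.14 to -0.31 in replicate 3, and from 0.04 to -0.08 in replicate 2. Among the oxy-Hb libraries replicate 3 also fell with GC, from 0.09 to -0.14, while replicates 1 and 2 rose, from -0.03 to 0.06 and from -0.06 to 0.08. C3aRA replicates 1 and 2 each fell from 0.09 to -0.13, and C3aRA replicate 3 went from -0.004 to -0.005. Single-gene CPM are scaled by the trimmed mean of M-values (TMM). Results are given with and without C3a replicate 2, apart from the comparison with C3aRA. The principal ones are also given after a correction of both fits for transcript length and GC content. The cause of these slopes was not tested. The microglial label was checked on 16 listed markers. Csf1r, Trem2, Tyrobp, Spi1, Cd68, Ptprc, Itgam and Cx3cr1 were present in all 6 libraries. P2ry12 (1.12 to 3.76 CPM), Tmem119 (1.66 to 2.33 CPM) and Aif1 (0.754 to 2.90 CPM) were low but above the limit that a count of 0 allows. C1qa and Fcrls lay at or near 0, so these markers of microglia in the brain were low in the line or close to absent. Among markers of other cells, 1 of 6 for astrocytes, 1 of 6 for neurons, 1 of 6 for endothelial cells or fibroblasts and 2 of 6 for red cells had a row, and each of these sums stayed at or below 1.66 CPM in every library. The 3 rows of 6 for oligodendrocytes summed to 33.1 to 34.2 CPM with oxy-Hb and to 32.1 to 35.9 CPM with C3a, most of it Cnp (21.8 to 26.2 CPM). The 16 microglial markers summed to 1796 to 1938 CPM with oxy-Hb and to 2037 to 2409 CPM with C3a. Hba-a1, a haemoglobin chain gene, stood at 0 to 0.104 CPM, under the limit that a count of 0 allows. In bulk RNA, fewer cells expressing a gene and less RNA per cell cannot be told apart.

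**Figure D1:**
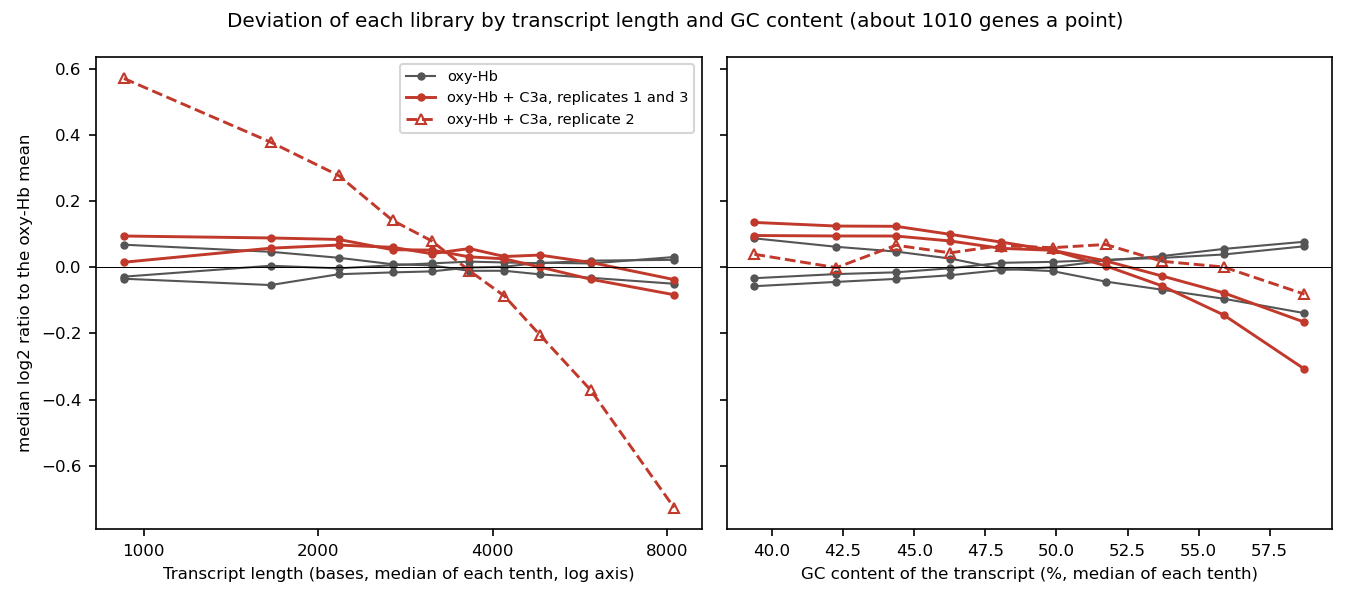
Median log2 ratio of each oxy-Hb and oxy-Hb with C3a library to the mean of the oxy-Hb libraries (vertical axis, no unit), in deciles of genes ordered by transcript length in bases (left, log axis) or by GC content in percent (right). Each point is 1 decile. C3a replicate 2 (triangles, dashed) falls from 0.57 to -0.73 with length, while C3a replicates 1 and 3 and oxy-Hb replicate 3 fall with GC content.

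Genes were tested with edgeR's quasi-likelihood F test and called at a Benjamini-Hochberg adjusted p below 0.05 over all tested genes, with no minimum fold. All p-values below are of this kind. With all libraries in the fit, 558 of 14146 tested genes were called (3.94%), of which 128 were higher with C3a (0.905%) and 430 lower (3.04%). Without C3a replicate 2, which leaves 2 libraries in that group, 1395 of 14613 genes were called (9.55%), 584 higher (4.0%) and 811 lower (5.55%). The 2 lists overlapped in 550 genes with 1 direction (3.89% of 14138 genes tested in both, 124 or 0.877% higher and 426 or 3.01% lower), which is 98.6% of the first list and 39.4% of the second. Of the 430 falls, C3a replicate 2 was the lowest of the 6 libraries in 327, and of the 128 rises it was the highest in 97. Of 457 rises called only without that library, it stood below the highest oxy-Hb library in 144. After the length and GC correction 733 genes were called with all libraries (5.18%), 360 higher (2.54%) and 373 lower (2.64%), and 1231 without C3a replicate 2 (8.42%), 720 higher (4.93%) and 511 lower (3.5%). The share of falls among calls thus moved from 77.1% to 50.9% with all libraries and from 58.1% to 41.5% without C3a replicate 2. With scaling to total counts it was 95.1% and 82.0%, and the median log2 fold change of all genes was -0.09 in place of 0.00. In 334 genes (2.36%) the call held in all 4 fits, 83 higher (0.587%) and 251 lower (1.78%).

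Single libraries also carried calls. In the fits that left out 1 of the 9 libraries the count fell to 54 when oxy-Hb replicate 1 was dropped, to 107 for its replicate 2 and to 307 for its replicate 3. Dropping C3a replicate 1 gave 1638 calls, replicate 2 gave 1395 and replicate 3 gave 444, and the 3 fits that each lacked a C3aRA library gave 296 to 322. The 54 genes that kept their call in each of these fits were all lower with C3a, and 51 of them were among the 251 falls of all 4 fits. No rise held in each of the 9 fits, and without oxy-Hb replicate 1 no rise was called. A fit of the 2 groups alone called 99 genes, 3 higher and 96 lower. Without oxy-Hb replicate 1, and likewise without replicate 2, 0 members were called in the lists of G protein signalling, the ERK cascade, immediate early factors, chaperones, proteasome, ribosome biogenesis, mitochondrial ribosomal proteins, replication, NRF2 targets, immunoreceptors, integrins and endocytic receptors that are described next. Leaving out C3a replicate 1 instead gave 747 rises and 891 falls over all genes. Rises were then 14 of 38 chaperone, 16 of 43 proteasome, 7 of 50 ribosome biogenesis and 19 of 77 mitochondrial ribosomal genes. They were also 8 of 51 replication, 18 of 43 NRF2, 15 of 52 lysosomal, 9 of 38 immunoreceptor and 5 of 30 integrin genes. In these lists 2 lysosomal genes and 1 gene each of replication, immunoreceptors and integrins fell. Falls were 9 of 46 G protein and 4 of 43 ERK cascade genes, with 1 rise in each.

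**Figure D2:**
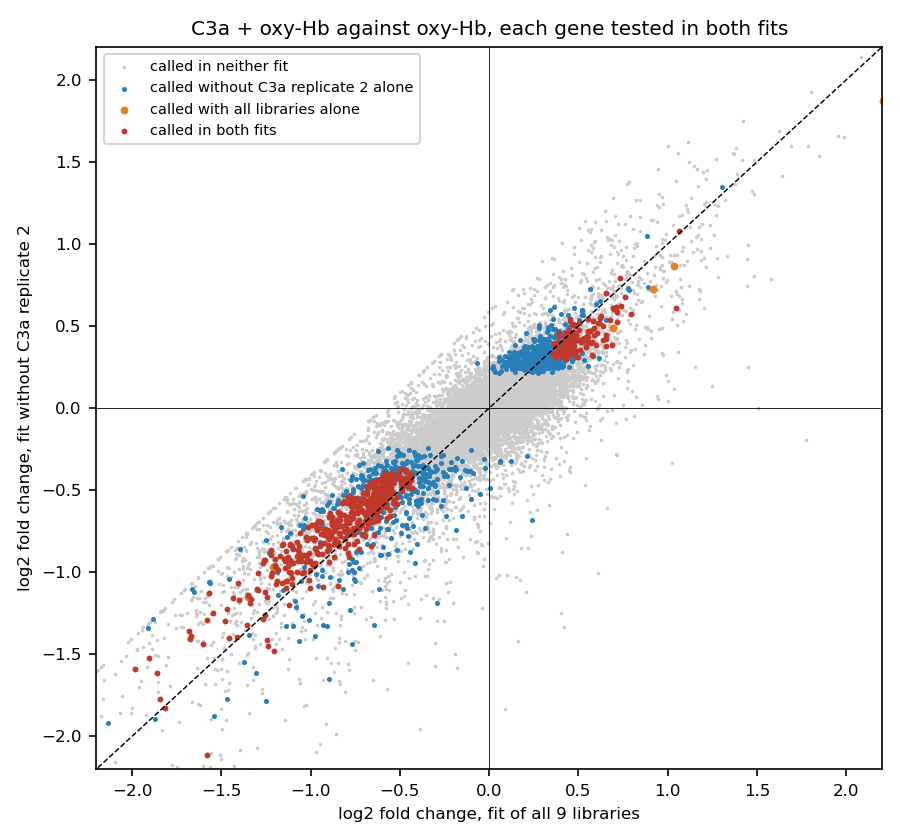
Log2 fold change of each gene with C3a against oxy-Hb when all 9 libraries were fitted (horizontal axis) and in the fit without C3a replicate 2 (vertical axis), for 14138 genes tested in both, 91 of which lie outside the plotted range. The dashed line marks equal values. The 550 genes called in both fits have the same sign in each.

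The C3a receptor gene did not pass with all libraries and rose without C3a replicate 2. C3ar1 (ENSMUSG00000040552, chromosome 6, 122847138 to 122856161 in GRCm38) stood at 60.3, 75.9 and 66.9 CPM in the oxy-Hb libraries and at 91.6, 74.5 and 88.3 CPM in the C3a libraries. Replicate 2 of C3a lay within the oxy-Hb range and the other 2 above it. Its log2 fold change was 0.32 ± 0.12 (SE, adjusted p = 0.117), and 0.40 (adjusted p = 0.00801) without C3a replicate 2. C3, the precursor of C3a, stood at 31.5, 26.3 and 24.8 and 38.7, 21.6 and 30.8 CPM, with overlapping groups and a log2 fold change of 0.14 ± 0.20 (SE, adjusted p = 0.707). C5ar1, the receptor of the related fragment C5a, stood at 20.2, 22.5 and 18.1 and 24.2, 38.8 and 23.9 CPM (log2 fold change 0.51 ± 0.19, SE, adjusted p = 0.116). Of 22 tested receptors for chemoattractants and related ligands, 0 were called with all libraries by edgeR, where 3 had an unadjusted p below 0.05 and DESeq2 called 1. C3ar1 and Ccr1, a chemokine receptor, were called without C3a replicate 2 (9.09% of the 22 against 9.55% of all genes). Ccr1 stood at 12.01, 10.4 and 12.3 and 26.3, 20.9 and 12.2 CPM, so that C3a replicate 3 fell inside the oxy-Hb range, and its call was lost after the length and GC correction (adjusted p = 0.144). The median log2 fold change of these receptors was 0.10 in both fits, beside 0.00 and -0.01 over all genes.

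Among genes of G protein signalling, Rgs2 rose. This regulator shortens signalling by Gq proteins and limits adenylyl cyclase. It stood at 75.7, 75.6 and 80.6 CPM with oxy-Hb and at 103, 138 and 108 CPM with C3a (chromosome 1, 143999338 to 144004161). Every C3a library lay above every oxy-Hb library, and groups apart in this way, in either direction, were found for 27.8% of all tested genes. Rgs2 had a log2 fold change of 0.59 ± 0.12 (SE, adjusted p = 0.0159), and of 0.44 (adjusted p = 0.00146) without C3a replicate 2. Adcy7, an adenylyl cyclase of immune cells, went the other way, from 158, 133 and 126 CPM to 95.5, 81.3 and 94.3 CPM. Its groups did not overlap either, at a log2 fold change of -0.62 ± 0.12 (SE, adjusted p = 0.0131), and -0.41 (adjusted p = 0.0015) after the correction without C3a replicate 2. Of the 45 tested G protein and RGS genes, Rgs2 alone rose and 5 fell, 13.3% called against 3.94% of all genes. The other 4 falls were Gnas, which encodes the stimulatory alpha subunit (-1.06), Prex1, the Rac exchange factor activated by beta-gamma subunits (-0.68), Pde4a, a cyclic AMP phosphodiesterase (-0.73), and Grk6, a receptor kinase (-0.46). With C3a replicate 2 left out, 2 rose and 7 fell (19.6% against 9.55% of all genes). After the correction 1 rose and 1 fell with all libraries, namely Rgs2 and Adcy7 (4.44% against 5.18%). Without C3a replicate 2 the corrected counts were 2 rises and 1 fall (6.52% against 8.42%). Gnas was lower in every C3a library (13.2, 5.78 and 13.5 CPM against 20.6, 21.00 and 26.1 CPM) but did not pass after the correction (adjusted p = 0.106), and the calls of Pde4a, Grk6 and Gnas passed in 2, 2 and 3 of the 9 fits with 1 library removed.

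In the ERK cascade 2 phosphatase genes moved in opposite directions. Dusp6, whose product inactivates ERK in the cytoplasm, stood at 55.3, 61.6 and 59.9 CPM with oxy-Hb and at 91.03, 106 and 89.6 CPM with C3a (chromosome 10, 99263231 to 99267489). The groups did not overlap, the log2 fold change was 0.69 ± 0.13 (SE, adjusted p = 0.0136), and 7 of the 9 fits with 1 library removed kept its call. Dusp4, whose product inactivates ERK in the nucleus, stood at 163, 147 and 140.4 CPM and at 126, 91.8 and 98.6 CPM, all below the oxy-Hb libraries, with a log2 fold change of -0.51 ± 0.12 (SE, adjusted p = 0.0357). Its call held in 2 of those 9 fits and in both corrected fits. These were the only calls among 43 genes of the cascade and its feedback with all libraries (4.65% against 3.94% of all genes), and the replicate block gave 1 rise and 3 falls. When C3a replicate 2 was left out, Ccnd1, a cyclin induced by ERK (0.30), rose too, and 5 fell (16.3% called against 9.55% of all genes). Among the falls were Dusp7 (-0.50), Etv4 (-0.40) and Nf1, which restrains RAS (-0.28). The list had medians of -0.08 and -0.13 with and without that library and 0.02 and -0.04 after the correction.

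Among AP-1, EGR and other immediate early factors the calls depended on C3a replicate 2. Junb, which encodes an AP-1 subunit, fell in all 4 fits (chromosome 8, 84974484 to 84978718). It stood at 81.5, 80.1 and 59.8 CPM with oxy-Hb and at 48.1, 47.6 and 35.4 CPM with C3a, a log2 fold change of -0.76 ± 0.15 (SE, adjusted p = 0.0139), and -0.83 (adjusted p = 0.000233) without C3a replicate 2. Id2, an inhibitor of basic helix-loop-helix factors, rose from 58.01, 59.5 and 56.8 CPM to 74.3, 117 and 82.02 CPM (0.65), and Sgk1, a kinase that responds to serum and glucocorticoids, from 23.7, 26.3 and 24.5 CPM to 37.1, 36.1 and 32.3 CPM (0.50). With all libraries these were the 3 calls among 29 genes (10.3% against 3.94% of all genes). Without C3a replicate 2, 9 of the 29 fell and the same 2 rose (37.9% called against 9.55% of all genes), with a median of -0.28, and after the correction 7 fell and 2 rose (31.0% against 8.42%). Of these 9 falls, 5 remained in number without oxy-Hb replicate 1 and 2 without C3a replicate 3, where the lone C3a library is assumed to vary like the other groups. Fos stood at 61.03, 49.3 and 46.6 CPM with oxy-Hb and at 31.1, 46.2 and 25.2 CPM with C3a, where replicate 2 lay just under the lowest oxy-Hb library. Its log2 fold change was -0.61 ± 0.22 (SE, adjusted p = 0.126) with all libraries and -0.90 (adjusted p = 0.0102) without that library. Jun (62.2, 64.9 and 62.8 against 56.3, 74.4 and 38.5 CPM) stood above the oxy-Hb libraries in C3a replicate 2 and below them in the other 2, at -0.17 ± 0.18 (SE, adjusted p = 0.593) and -0.42 (adjusted p = 0.0205). Zfp36, whose product marks cytokine mRNAs for decay, stood at 32.4, 24.01 and 19.3 CPM and at 13.5, 16.8 and 16.3 CPM, with -0.70 ± 0.19 (SE, adjusted p = 0.0558) and -0.77 (adjusted p = 0.00759). Fosb (-3.32), Fosl2 (-0.69), Nr4a1 (-0.82), Nr4a2 (-1.09) and Srf (-0.56) completed the falls, of which Fosb lay low, at 0.711, 1.46 and 0.236 CPM with C3a against 8.93, 2.54 and 2.99 CPM.

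Srf encodes serum response factor, which drives many immediate early genes and its own gene through the serum response element, so its promoter is shown. The stretch lies 3 to 122 bases upstream of the RefSeq start (GRCm38.p6, chr17:46556165-46556284, minus strand, 5′ to 3′), with 2 serum response elements in capitals:
Srf: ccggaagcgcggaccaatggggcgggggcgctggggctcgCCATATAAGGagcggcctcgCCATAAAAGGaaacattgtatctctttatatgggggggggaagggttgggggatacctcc
Such an element, searched on both strands over the 250 bases before the start, was found for 1.62% of 27025 genes with a promoter in RefSeq. It was found for 1.24% of the 9609 tested ones, for 3 of 24 genes of the immediate early list and for 2 of the 11 called in either fit. A match of letters describes the window and shows no binding.

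**Figure D3:**
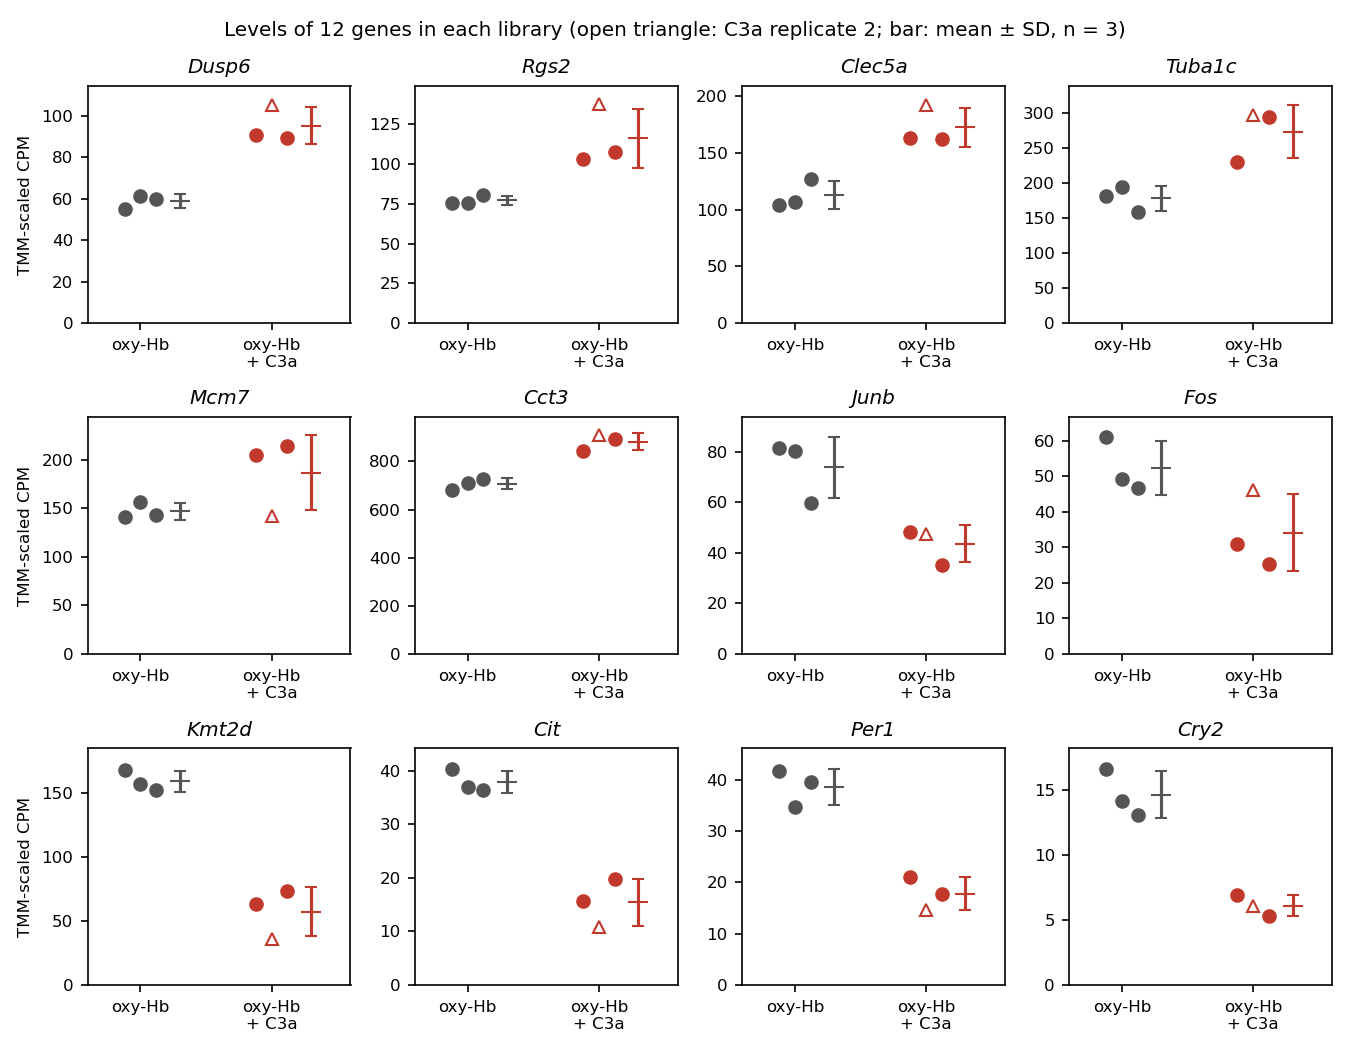
TMM-scaled CPM (vertical axes, from 0) of 12 genes in the 3 oxy-Hb libraries (grey) and the 3 oxy-Hb with C3a libraries (red), with mean and SD (n = 3). C3a replicate 2 (open triangle) is with its group for Dusp6, Rgs2, Junb, Per1 and Cry2, and lies in or near the oxy-Hb range for Mcm7 and Fos.

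Genes for histone-modifying and chromatin-remodelling enzymes, which set how open the genome is to transcription, gave 12 of the 430 falls. Of 70 tested, 0 rose and 12 fell with all libraries (17.1% against 3.94% of all genes), with a median log2 fold change of -0.39. Without C3a replicate 2, 1 rose and 21 fell (31.4% against 9.55%), with a median of -0.17. Kmt2d, a histone H3 lysine 4 methyltransferase gene (chromosome 15, 98831669 to 98871204), stood at 168, 157 and 152 CPM with oxy-Hb and at 63.1, 35.98 and 73.3 CPM with C3a. All C3a libraries were far below the oxy-Hb libraries, and the fall of -1.23 (adjusted p = 1.08e-10) without C3a replicate 2 stood at -0.66 (adjusted p = 5.16e-06) after the correction. Its relative Kmt2a stood at 159, 138 and 144 and 66.2, 25.4 and 74.8 CPM, with log2 fold changes of -1.07 (adjusted p = 5.81e-09) and -0.80 (adjusted p = 1.68e-07) in the same fits. Ep300, a histone acetyltransferase (-0.79), Tet3, which oxidises methylated cytosine (-0.84), and Kdm6b, a demethylase of histone H3 lysine 27 (-0.90), fell as well, the last at -0.37 (adjusted p = 0.162) and no longer called in the corrected fit with all libraries. In the corrected fit with all libraries 8 fell (11.4% against 5.18% of all genes), with a median of -0.11. In the one without C3a replicate 2, 3 rose and 11 fell (20% against 8.42%), with a median of -0.01. In all 4 fits 5 genes fell. The 12 falls numbered 1, 1 and 6 when oxy-Hb replicates 1, 2 and 3 were left out in turn, and 27 for C3a replicate 1. With the replicate number as a block, 20 fell. The gene that rose without C3a replicate 2 was Smarcc1, a subunit of the BAF remodelling complex (0.27), where C3a replicate 2 lay below the other libraries (209, 125 and 193 against 163, 160.0 and 176 CPM).

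Of 47 genes of Mediator and RNA polymerase II, 2 fell, namely Med15 and Med13l (4.26% against 3.94% of all genes), and 4 fell with the replicate block. Med15, a tail subunit of Mediator, stood at 52.8, 47.8 and 47.4 CPM with oxy-Hb and at 33.3, 27.5 and 31.7 CPM with C3a, a close and separate pair of groups. Its log2 fold change of -0.68 ± 0.12 (SE, adjusted p = 0.00699) was -0.72 (adjusted p = 0.00193) after the correction, and Med13l (-0.66 ± 0.17, SE, adjusted p = 0.0487) did not pass there (adjusted p = 0.106). The correction used an annotated transcript of 3 exons for Med15, and whether that is the one counted was not tested. The median of the list was 0.08 with TMM scaling and -0.02 with scaling to total counts.

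Among cytoskeletal genes the calls with all libraries were falls of large linkers and motors and rises of tubulin and actin regulator genes. Of 48 tested linkers, motors and exchange factors of small GTPases 0 rose and 8 fell with all libraries (16.7% against 3.94% of all genes). Without C3a replicate 2, 4 rose and 14 fell (37.5% against 9.55%). Cit, the citron kinase of the cleavage furrow (chromosome 5, 115845278 to 116008947), stood at 40.3, 36.9 and 36.4 CPM with oxy-Hb and at 15.7, 10.8 and 19.7 CPM with C3a. The groups were well apart, the log2 fold change was -1.30 ± 0.18 (SE, adjusted p = 0.00268), it was -0.81 (adjusted p = 0.000188) in the corrected fit without C3a replicate 2, and each of the 9 fits with 1 library removed kept the call. Arhgef1, a guanine nucleotide exchange factor driven by G proteins, stood at 68.7, 68.1 and 60.6 and 43.4, 45.8 and 38.8 CPM (-0.62 ± 0.11, SE, adjusted p = 0.0088). Plec, which encodes the linker plectin (-1.07), and Myo10, a myosin of filopodia (-0.69), fell too, but in the corrected fit with all libraries the calls of Arhgef1 at -0.26 (adjusted p = 0.0996), Plec at -0.27 (adjusted p = 0.0796) and Myo10 at -0.30 (adjusted p = 0.0629) were lost. They passed there without C3a replicate 2. Corrected, 3 rose and 6 fell with all libraries (18.8% against 5.18% of all genes). Without C3a replicate 2, 7 rose and 9 fell after the correction (33.3% against 8.42%), and 4 falls held in all 4 fits. The 8 falls numbered 1, 1 and 3 when oxy-Hb replicates 1, 2 and 3 were left out in turn, and 17 for C3a replicate 1. The replicate block gave 13 falls. Dock2, a Rac exchange factor of leukocyte migration (0.26), Iqgap1, a scaffold of actin (0.21), Sptan1, which encodes alpha-spectrin (0.28), and Vim, the vimentin gene (0.25), rose without C3a replicate 2.

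Of 45 tubulin, actin and small actin regulator genes 4 rose and 0 fell (8.89% against 3.94% of all genes). All 4 rises held in all 4 fits. Tuba1c stood at 181, 195 and 158 CPM with oxy-Hb and at 229.7, 297 and 295 CPM with C3a (0.62 ± 0.12, SE, adjusted p = 0.0156), with no overlap. Tuba1b (0.70) and Tubb4b (0.44), also tubulin genes, and Wdr1, which helps cofilin take actin filaments apart, made up the rest. Wdr1 stood at 130.3, 134 and 139.7 CPM and at 167, 183 and 176 CPM, a small change of 0.38 ± 0.10 (SE, adjusted p = 0.0447) between tight groups. Tubulin genes share reads with close paralogs and pseudogenes, so their single counts are uncertain. In the fit lacking C3a replicate 2, 10 of the 45 rose (22.2% against 9.55% of all genes). Among them were Actb (0.31), Cdc42 (0.28), Actr2 of the ARP2/3 complex (0.24) and Stmn1, which destabilises microtubules (0.35). With scaling to total counts, 2 and 4 rose in the 2 fits, and the 4 rises became 0 without oxy-Hb replicate 1 or 3 and 12 without C3a replicate 1. The list's median was 0.25 with all libraries and 0.16 without C3a replicate 2.

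Chaperone genes moved by small steps. Of 38 chaperonin, prefoldin and heat shock genes 2 rose with all libraries (5.26% against 3.94% of all genes). They were Cct6a, a subunit of the chaperonin that folds actin and tubulin (0.42), and Ptges3, the HSP90 cochaperone p23 (0.44). Without C3a replicate 2, 16 rose and 0 fell (42.1% against 9.55% of all genes), with a median of 0.22. Corrected counts of rises were 5 with all libraries (13.2% against 5.18%) and 9 without C3a replicate 2 (23.7% against 8.42%). With scaling to total counts 0 passed with all libraries, and 5 rose and 1 fell without C3a replicate 2. The 16 rises became 3 and 6 without oxy-Hb replicate 1 or 2 as well, and 1 without C3a replicate 3. Cct3 stood at 683, 713 and 727 CPM with oxy-Hb and at 843, 909 and 895 CPM with C3a, with 0.29 (adjusted p = 0.00645) without replicate 2. Hsp90ab1, the constitutive HSP90, stood at 2287, 2263 and 2260.0 and 2729, 2887 and 2682 CPM, with 0.25 (adjusted p = 0.0171). Neither pair of groups overlapped, in spite of the small steps. Stip1, which links HSP70 to HSP90 (0.41), Hsph1, a nucleotide exchange factor of HSP70 (0.38), Fkbp4, a cochaperone of steroid receptors (0.24), and Dnaja1, an HSP70 cochaperone (0.29), also rose without C3a replicate 2.

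Heat shock factor binds inverted GAA units, and the promoters of 2 of these rising genes are shown for the letters GAANNTTC or TTCNNGAA, in capitals (RefSeq, GRCm38.p6, 5′ to 3′). The stretch of Hsph1 is chr5:149636337-149636409 on the minus strand, 1 to 73 bases before the start, and that of Dnaja1 is chr4:40722304-40722423 on the plus strand, 45 to 164 bases before it:
Hsph1: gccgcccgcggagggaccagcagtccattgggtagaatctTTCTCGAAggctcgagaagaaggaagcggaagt
Dnaja1: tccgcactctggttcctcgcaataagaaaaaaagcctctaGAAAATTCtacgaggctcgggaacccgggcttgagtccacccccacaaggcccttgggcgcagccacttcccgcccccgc
Either run of letters, each of which reads the same on both strands, was found for 14.5% of 27025 genes with a promoter. It was found for 12.1% of the 9609 tested ones, for 13 of 34 of the list's genes and for 5 of the 14 called in either fit.

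Genes of protein turnover and of ribosome assembly gave few calls with all libraries, near or below the share of all genes (3.94%), and more when C3a replicate 1 or 2 was left out. Of 43 proteasome genes 1 rose with all libraries (2.33%; 3 with the replicate block), the base ATPase Psmc5, from 93.8, 109.7 and 100.4 CPM to 123, 148 and 138 CPM (0.43 ± 0.11, SE, adjusted p = 0.0384). Without C3a replicate 2, 10 rose and 1 fell (25.6% against 9.55% of all genes), and with scaling to total counts 2 rose and 1 fell. Psmd1, a scaffold subunit of the regulatory particle, stood at 192, 189.9 and 208 and 256, 198 and 269 CPM (0.41, adjusted p = 0.000408), with replicate 2 in the oxy-Hb range. Of 50 ribosome biogenesis genes 1 rose with all libraries (2.0%), Nop16, a nucleolar protein gene (0.45). Without C3a replicate 2, 10 rose (20% against 9.55% of all genes), and 6 with scaling to total counts. Among the 10 were Nolc1, a nucleolar chaperone (0.42), Ddx21, an RNA helicase (0.34), Nop58, of box C/D particles (0.32), and Pes1, of the large subunit pathway (0.29). The corrected counts were 4 with all libraries (8% against 5.18%) and 12 without C3a replicate 2 (24% against 8.42%). Leaving out oxy-Hb replicate 1 or C3a replicate 3 as well took the 10 proteasome rises to 2 and 1, and the 10 of ribosome biogenesis to 2 and 0. Of 77 mitochondrial ribosomal protein genes 3 rose with all libraries (3.9%; 5 with the replicate block) and 4 without C3a replicate 2 (5.19% against 9.55% of all genes), among them Mrpl18 (28.1, 29.04 and 31.3 CPM against 40.5, 56.1 and 50.7 CPM, 0.74 ± 0.14, SE, adjusted p = 0.0122) and Mrpl11 (0.48).

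In nuclear transport 1 of 48 genes rose and 1 fell with all libraries, 4.17% against 3.94% of all genes, and 2 fell with the replicate block. Ranbp1, a cofactor of RAN, stood at 80.96, 91.9 and 94.9 CPM with oxy-Hb and at 116, 182 and 143 CPM with C3a. Its groups did not overlap, at a log2 fold change of 0.72 ± 0.14 (SE, adjusted p = 0.0162), and 0.53 (adjusted p = 0.00041) without C3a replicate 2. Tnpo2, an import receptor of RNA-binding proteins, fell from 88.4, 80.03 and 85.7 CPM to 62.5, 50.6 and 56.7 CPM (-0.58 ± 0.11, SE, adjusted p = 0.0119). The corrected fit with all libraries put Tnpo2 at -0.27 (adjusted p = 0.085), which did not pass. Leaving out C3a replicate 2, 7 rose and 2 fell (18.8% against 9.55% of all genes). With scaling to total counts 2 rose and 6 fell instead, while the list's median stayed above 0 (0.15 and 0.09).

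Genes of replication licensing and of the replication fork gave more rises when C3a replicate 2 was left out, and 8 when replicate 1 was. Of 51 tested, 2 rose with all libraries (3.92% against 3.94% of all genes), Rpa1 and Rpa2, which coat single-stranded DNA (0.39 and 0.48). Without C3a replicate 2, 13 rose and 1 fell (27.5% against 9.55% of all genes), and 15 and 0 after the correction (29.4% against 8.42%). Mcm7, a subunit of the replicative helicase, stood at 141, 156 and 143 CPM with oxy-Hb and at 204, 142 and 214 CPM with C3a. Replicate 2 thus lay at the oxy-Hb level and the other 2 libraries above it, with log2 fold changes of 0.35 ± 0.13 (SE, adjusted p = 0.138) and 0.50 (adjusted p = 4.78e-05). Mcm4 stood at 138, 146 and 151 and 189, 159 and 243 CPM (0.57, adjusted p = 3.37e-05 without C3a replicate 2). Mcm5 (0.36), Mcm2 (0.31), Lig1, the ligase of the lagging strand (0.38), Cdc6, a loader of the helicase (0.41), and Rrm2, of nucleotide reduction (0.60), were further rises of that fit. Cdt1, which loads the helicase with Cdc6, fell there (-0.51). With scaling to total counts 8 rose and 1 fell, and 6, 7 and 5 rose without oxy-Hb replicate 1 or 2 or C3a replicate 3 as well.

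Among NRF2 targets, glutathione and pentose phosphate genes 3 of 43 rose with all libraries (6.98% against 3.94% of all genes), and these 3 rose in all 4 fits. The count was 18 without C3a replicate 1, 9 with the DESeq2 Wald test and 6 with the replicate block. Pgd, an enzyme of the pentose phosphate pathway that makes NADPH, stood at 398, 466 and 429 CPM with oxy-Hb and at 558, 639.9 and 559.8 CPM with C3a (0.44 ± 0.10, SE, adjusted p = 0.0298). Srxn1, which repairs peroxiredoxins, stood at 80.8, 98.3 and 97.7 CPM and at 116, 167 and 128 CPM (0.57 ± 0.14, SE, adjusted p = 0.0425), and Cat, the catalase gene, at 238, 234 and 230.4 CPM and at 283, 362 and 305 CPM (0.44 ± 0.11, SE, adjusted p = 0.0363). None of the 3 overlapped, each call was lost with scaling to total counts, and 3 or fewer of the 9 fits with 1 library removed kept each of them. G6pdx, the first enzyme of the pathway (0.28), Gpx1, a glutathione peroxidase (0.32), Idh1, a further source of NADPH (0.27), and Nfe2l2, which encodes NRF2 (0.26), were called without C3a replicate 2 besides. Hmox1, the haem-degrading target of NRF2, varied within the C3a group, at 905, 805 and 756 CPM with oxy-Hb and at 1432, 1174 and 660.3 CPM with C3a, so that the groups overlapped (0.41 ± 0.22, SE, adjusted p = 0.28).

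Among immune receptors at the cell surface most calls were rises. The list of Fc, TREM and other receptors of the immunoreceptor tyrosine motif and their partners had 38 tested genes. With all libraries 3 rose and 1 fell (10.5% against 3.94% of all genes), and the 3 rises held in all 4 fits. Clec5a, a lectin receptor that signals through DAP12 (chromosome 6, 40574894 to 40585821), stood at 104, 107 and 127 CPM with oxy-Hb and at 163, 193 and 162 CPM with C3a (0.61 ± 0.11, SE, adjusted p = 0.00954). Ptpn6, the phosphatase SHP-1 that restrains such receptors, stood at 165, 168 and 154 CPM and at 228, 209 and 219 CPM (0.43 ± 0.09, SE, adjusted p = 0.0226), with narrow groups. Fcgr1, the high-affinity IgG receptor, stood at 53.5, 60.5 and 64.8 and 76.4, 104 and 81.9 CPM (0.56 ± 0.13, SE, adjusted p = 0.0327). Btk, a kinase of the same cascades, rose only without C3a replicate 2 (0.35), and Siglec1, a sialic acid receptor, fell (-0.68 ± 0.15, SE, adjusted p = 0.0258) but not after the correction (adjusted p = 0.19). Among 30 integrin and adhesion genes 1 was called with all libraries (3.33% against 3.94% of all genes). Itgam, the CD11b chain that binds C3 fragments, rose from 41.6, 37.3 and 44.3 CPM to 51.9, 91.1 and 55.6 CPM (0.69 ± 0.18, SE, adjusted p = 0.0498), where replicate 2 was by far the highest. Itgam stood at 0.38 (adjusted p = 0.025) without it, its call was lost after the correction with all libraries (adjusted p = 0.0907), with upper-quartile or DESeq2 scaling, with limma-voom and with a filter at 5 CPM, and it passed in 3 of the 9 fits with 1 library removed. Cd44, the hyaluronan receptor, rose without C3a replicate 2 as well (0.28).

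Among large endocytic and guidance receptors the calls with all libraries were falls. Of 24 endocytic and scavenger receptor genes 3 fell (12.5% against 3.94% of all genes). Lrp1, an endocytic receptor of many ligands (chromosome 10, 127538161 to 127621148), stood at 344, 324 and 311 CPM with oxy-Hb and at 169.7, 79.6 and 177 CPM with C3a. Replicate 2 was the lowest, and the log2 fold change moved from -1.20 ± 0.23 (SE, adjusted p = 0.0184) to -0.92 (adjusted p = 6.89e-09) without it and to -0.42 (adjusted p = 0.000156) after the correction as well. Stab1, a scavenger receptor (-0.79), did not pass in the corrected fits. Of 22 plexin, semaphorin and Notch pathway genes 0 rose and 6 fell (27.3% against 3.94% of all genes), with a median of -0.35. Without C3a replicate 2, 1 rose and 7 fell (36.4% against 9.55%). Plxna1, a semaphorin receptor, stood at 56.9, 56.3 and 40.5 and 28.5, 35.8 and 28.3 CPM (-0.73 ± 0.14, SE, adjusted p = 0.0152), Notch2 at 76.6, 71.8 and 64.7 and 47.9, 35.9 and 43.6 CPM (-0.74 ± 0.12, SE, adjusted p = 0.00562). Agrn, which encodes agrin (-1.29), and Plxna3 (-1.34) fell in all 4 fits, while Plxnd1 (-0.67) and Jag2, a Notch ligand (-0.74), did not pass in either corrected fit. Plxna1 and Notch2 lost their calls in the corrected fit with all libraries, at -0.11 (adjusted p = 0.799) and -0.25 (adjusted p = 0.161), and kept them in the one without C3a replicate 2. The 6 falls became 1 and 3 without oxy-Hb replicates 1 and 2. The corrected list had 2 falls with all libraries (9.09% against 5.18%) and 4 without C3a replicate 2 (18.2% against 8.42%), with medians of -0.04 and -0.08.

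Lysosomal genes gave 1 call with all libraries (1.92% against 3.94% of all genes), a fall, in a list whose median was above 0. Without C3a replicate 1, 15 rose and 2 fell. Mcoln1, the calcium channel TRPML1 of lysosomes (chromosome 8, 3500457 to 3515232), stood at 74.5, 72.5 and 58.2 CPM with oxy-Hb and at 36.7, 27.2 and 35.2 CPM with C3a, a log2 fold change of -1.05 ± 0.14 (SE, adjusted p = 0.00256). It was -1.09 (adjusted p = 0.000435) after the correction with all libraries, and each of the 9 fits with 1 library removed kept the call. The correction used the longest annotated transcript of each gene, here 1 exon of 2889 bases and 50.4% GC. These lie near the medians of tested genes (2970 bases, 49.1%). Whether the counted RNA had that length and GC content was not tested, so the corrected value of Mcoln1 is uncertain. The other 51 tested lysosomal genes gave 0 calls with all libraries in edgeR, while DESeq2 called 8 rises, and 27 of the 52 had an unadjusted p below 0.05. The list's median was 0.23. In the fit lacking C3a replicate 2, 4 rose and 4 fell (15.4% against 9.55% of all genes), and with scaling to total counts 1 rose and 5 fell. Among the 4 rises were Ctsa, cathepsin A (0.27), and Atp6v1a, of the proton pump (0.27). Among the 4 falls were Grn, progranulin (-0.38), and Tfe3, a regulator of lysosomal genes (-0.51).

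**Figure D4:**
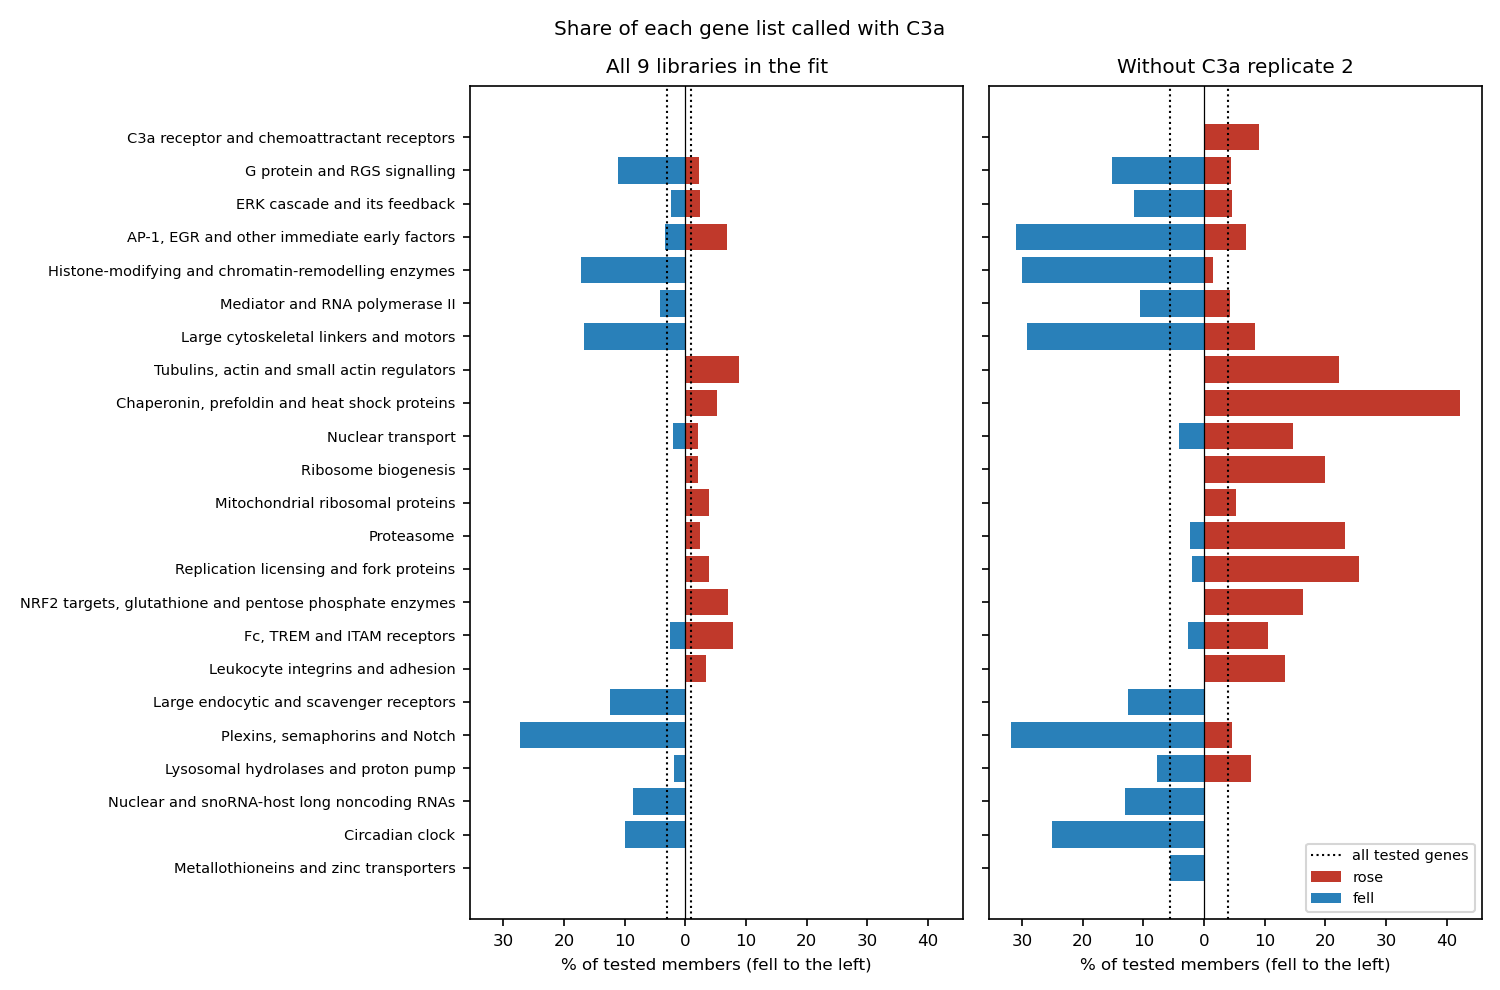
Percent of the tested members of 23 gene lists that rose (red, to the right) or fell (blue, to the left) with C3a, in the fit of all 9 libraries (left) and without C3a replicate 2 (right). Dotted lines mark the shares over all tested genes, 0.905% and 3.04% on the left and 4.0% and 5.55% on the right. Falls of chromatin, large cytoskeletal and plexin genes appear in both panels, and rises of chaperone, proteasome and replication genes mainly in the right one.

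The circadian clock list held 2 falls that passed in every fit that left out 1 library. Cry2, a repressor of the clock (chromosome 2, 92403646 to 92434043), stood at 16.6, 14.1 and 13.1 CPM with oxy-Hb and at 6.87, 6.09 and 5.32 CPM with C3a. The highest C3a library lay well below the lowest oxy-Hb library, and the log2 fold change was -1.26 ± 0.18 (SE, adjusted p = 0.00316), -1.26 (adjusted p = 6.8e-05) without C3a replicate 2 and -1.07 (adjusted p = 0.000495) after the correction as well. Per1, another repressor (chromosome 11, 69095217 to 69109960), stood at 41.7, 34.8 and 39.4 CPM and at 21.03, 14.6 and 17.7 CPM, with -1.12 ± 0.15 (SE, adjusted p = 0.00268), -1.0 (adjusted p = 8.24e-06) and -0.66 (adjusted p = 0.00101) in the same fits. Each of the 9 fits with 1 library removed kept both calls. Of the 20 tested clock genes these 2 alone were called with all libraries (10% against 3.94% of all genes). Without C3a replicate 2, 5 fell (25% against 9.55%), and the medians were -0.34 and -0.35 in the 2 fits. The 5 became 2 without oxy-Hb replicate 1 or C3a replicate 3 as well. The other 3 were Nfil3, a repressor of D-box genes (-0.56), Bhlhe41 (-0.38) and the kinase gene Csnk1e (-0.37). CLOCK and BMAL1 drive their targets from the E-box CACGTG, and the stretch of the Per1 promoter that holds it, 87 to 206 bases upstream of the RefSeq start, is shown with the E-box in capitals (RefSeq, GRCm38.p6, chr11:69098743-69098862, plus strand, 5′ to 3′):
Per1: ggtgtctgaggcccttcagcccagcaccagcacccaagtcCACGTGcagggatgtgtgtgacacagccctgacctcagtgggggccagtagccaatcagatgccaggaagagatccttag
The E-box, which reads the same on both strands, was found for 6.86% of 27025 genes with a promoter and for 9.95% of the 9609 tested ones. It was found for 5 of 17 clock genes and for 2 of the 5 that were called.

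Of 23 long noncoding RNAs that stay in the nucleus or host small nucleolar RNAs, 2 fell with all libraries (8.7% against 3.94% of all genes). Neat1, the scaffold of paraspeckles (chromosome 19, 5824708 to 5845478), stood at 1403, 1244 and 1578 CPM with oxy-Hb and at 890.4, 850.2 and 892 CPM with C3a, with no overlap and a log2 fold change of -0.68 ± 0.10 (SE, adjusted p = 0.00399). It was -0.67 (adjusted p = 1.42e-06) without C3a replicate 2. The correction with all libraries took it to -0.02 (adjusted p = 0.978), and the correction without C3a replicate 2 to -0.41 (adjusted p = 6.37e-05), so the corrected value of this long single-exon transcript moved with C3a replicate 2. Firre, which organises chromatin from the X chromosome, stood at 87.9, 82.99 and 99.6 CPM and at 60.3, 58.8 and 61.6 CPM, with -0.58 ± 0.11 (SE, adjusted p = 0.0122), and it fell in all 4 fits. Of 18 metallothionein and zinc transporter genes 0 were called with all libraries in edgeR, 7 had an unadjusted p below 0.05, and DESeq2 called 1. Mt1, a metallothionein gene, stood at 192, 231 and 236 and 343, 444 and 251 CPM, higher in every C3a library, and did not pass (0.66 ± 0.18, SE, adjusted p = 0.0602).

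Further falls outside the lists passed whichever library was left out. Zbtb34, a zinc finger repressor gene (chromosome 2, 33406108 to 33431324), stood at 61.2, 53.5 and 57.2 CPM with oxy-Hb and at 28.1, 22.8 and 27.1 CPM with C3a, with -1.14 ± 0.12 (SE, adjusted p = 0.00173) and -1.01 (adjusted p = 1.19e-07) in the corrected fit without C3a replicate 2. Leng8 (chromosome 7, 4137039 to 4148177), related to factors of nuclear mRNA export, stood at 133, 109 and 105 CPM and at 60.4, 41.3 and 50.2 CPM (-1.19 ± 0.14, SE, adjusted p = 0.00256). Both pairs of groups were far apart and both genes were called in all 4 fits. Atg2a, a lipid transfer protein of autophagy (-1.19), Mapk8ip3, a scaffold of JNK and kinesin (-1.21), Abca7, a lipid transporter (-1.14), and Zfhx3, a homeobox factor (-1.35), kept their calls in each of the 9 fits that left out 1 library and in all 4 fits. Bsn, which encodes a synaptic scaffold, had its call lost in the corrected fit with all libraries (adjusted p = 0.123). Among the rises outside the lists that passed in both fits without overlap, given by their change without C3a replicate 2, were Cenpp, a kinetochore gene (0.79), Rcn1, a calcium-binding protein of the endoplasmic reticulum (0.62), Tyw5, a tRNA-modifying enzyme (0.59), Srsf3, a splicing factor (0.56), Aatf, an RNA polymerase II cofactor (0.54), and Ddx24, an RNA helicase (0.54). Aatf stood at 54.3, 55.7 and 65.3 CPM with oxy-Hb and at 79.1, 86.7 and 91.8 CPM with C3a, and Srsf3 at 189.7, 207 and 258 and 283, 365 and 364 CPM. Their lack of overlap was part of the rule that chose them. Of the rises named in this paragraph all but Cenpp were called in all 4 fits. Of the 9 fits with 1 library removed, 2 kept the calls of Rcn1 and Ddx24, 4 that of Cenpp and 7 those of Tyw5, Srsf3 and Aatf.

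**Figure D5:**
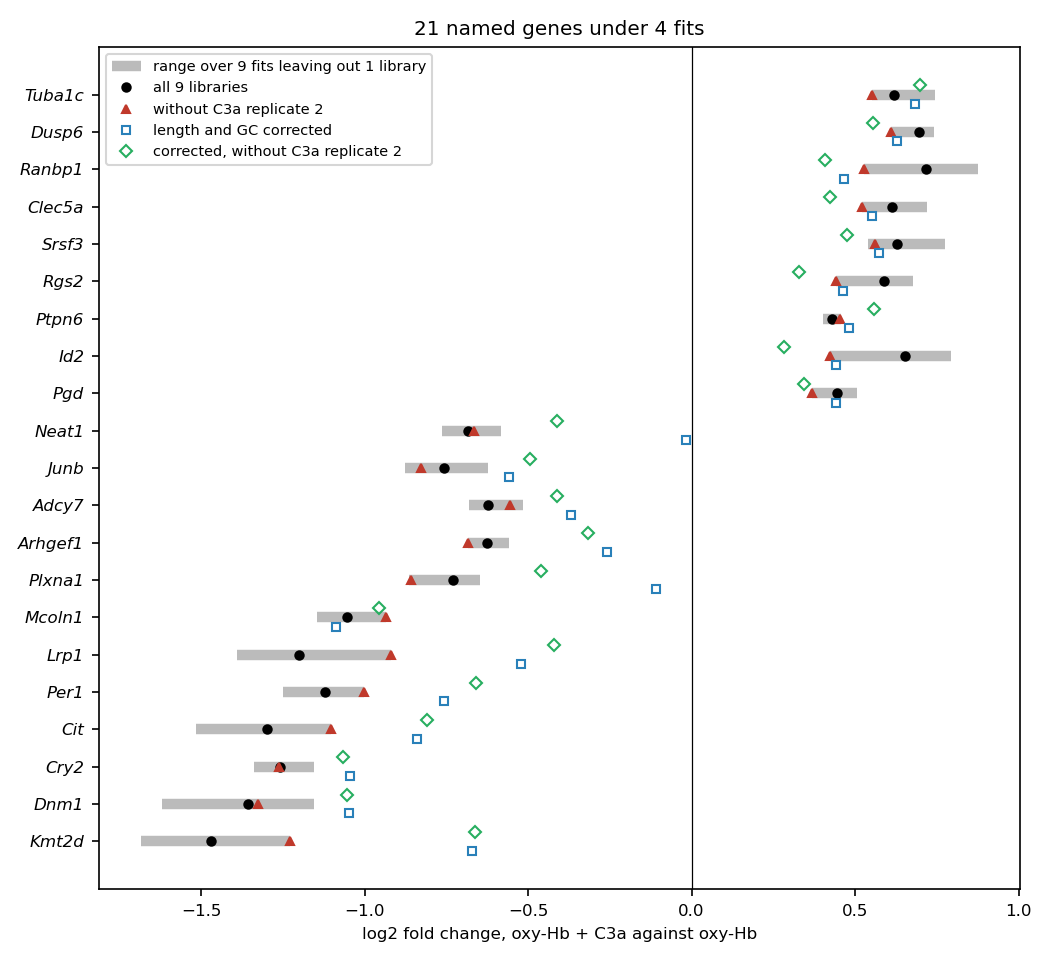
Log2 fold change with C3a against oxy-Hb (horizontal axis) of 21 named genes in 4 fits, from all 9 libraries (circles), without C3a replicate 2 (triangles), and each after the length and GC correction (squares and diamonds). Grey bars span the 9 fits that left out 1 library. Rises cluster between 0.28 and 0.72. Mcoln1, whose longest annotated transcript is a single exon near the median length and GC content, keeps its size after the correction. Kmt2d, Lrp1 and Neat1 lose much of theirs.

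Transcript structure, taken from the longest annotated transcript of each gene, was compared across called genes. Falls had a median transcript length of 5051 bases, a GC content of 54.7% and 15 exons, against 2970 bases, 49.1% and 6 exons over tested genes, and rises had 2305 bases and 47.8%. The rises called without C3a replicate 2 had 3134 bases and 9 exons, above the medians of tested genes, and a GC content of 46.5%. The 251 falls of all 4 fits still had 4682 bases and 53.3%. The 54 falls kept in each of the 9 fits, Kmt2d, Cit, Leng8 and Per1 among them, had 5664 bases, 56.8% and 21.5 exons. The share of genes called lower rose from 0.495% in the shortest decile to 12.1% in the longest and from 0.396% to 12.3% from the lowest to the highest GC decile. A transcript annotated with a retained intron was present for 65.3% of falls and 63.3% of rises, against 49.1% of tested genes. The slopes of length and GC by library given above move with these calls, and their part in single falls was not tested. The correction is fitted in each library, C3a libraries included, so it also removes any C3a effect that follows length or GC.

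The C3aRA libraries share the oxy-Hb controls with this comparison, so the values of both additions are set side by side without a test of likeness. Between C3a and C3aRA 876 of 14146 genes (6.19%) differed in the fit of 9 libraries. All values of this comparison include C3a replicate 2, and values without it are not given here. Junb had a log2 fold change of -0.76 with C3a and 0.31 with C3aRA, a difference of -1.07 (adjusted p = 0.0044). Dusp4 had -0.51 and 0.29 (-0.80, adjusted p = 0.0056), and Mt1 0.66 and -0.62 (1.27, adjusted p = 0.00544), so these genes differed between the additions. Against oxy-Hb, none of the C3aRA values in this paragraph was called (adjusted p of 0.467 or above), and Mt1 was not called with C3a (adjusted p = 0.0602). Rgs2 (0.59 and -0.23), Srsf3 (0.63 and -0.28), Cry2 (-1.26 and -0.04), Per1 (-1.12 and -0.09) and Zbtb34 (-1.14 and -0.07) also passed between C3a and C3aRA. Kmt2d had -1.47 and -0.64, the latter not called, and differed between the additions (-0.83, adjusted p = 0.0299). Lrp1 (-1.20 and -0.64), Bsn (-1.26 and -0.82), Zfhx3 (-1.35 and -0.68) and Neat1 (-0.68 and -0.42) did not pass between the additions, which does not show that they were alike. The authors' deposited table, made with a test that the labels do not name, holds 508 genes with an adjusted p below 0.05, and Dusp6 stood at 0.70, Per1 at -1.11 and Cry2 at -1.25 there.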

How the data were processed

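Per the labels' protocols, a column kit gave the RNA of BV2 cells, of which 1.3 ug went into libraries made with a SMARTER mRNA-seq kit. The authors deposited raw read counts of 22935 Ensembl genes for the oxy-Hb and C3a libraries in 1 table and for the oxy-Hb and C3aRA libraries in another, each with the authors' log2 fold change and adjusted p-value per gene. The oxy-Hb counts were the same in both (0 differed), so the 9 libraries entered 1 fit. Genome builds GRCm38 and mm10 appear per the submitters' processing notes. Not given in the sources used here are the alignment and counting programs, the use of strand and the test of the deposited table. Genes that overlap, or lie antisense to each other, may therefore share counts. Of the identifiers, 22908 were found in GENCODE M21, which gave the length and GC content of each gene's longest transcript. That transcript can have few exons, such as 3 for Med15, 2 for Pgd and Ddx24 and 1 for Wdr1 and Mcoln1. Whether it was the one counted was not tested, which limits the correction for such genes. A further 9 symbols that a spreadsheet had turned into dates were restored.

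Groups and replicate numbers came from the labels. The counts were fitted in R 4.3.3 by edgeR 4.0.16 (filterByExpr with a minimum count of 10, TMM, 1 coefficient per group, robust quasi-likelihood F test), with errors of fold changes as SEs of the fit. The biological coefficient of variation was 15.8% with all libraries and 10.4% without C3a replicate 2, which was left out in a second fit because it differs from its group. The length and GC correction used splines of 5 degrees of freedom per library, fitted on genes with a mean count of at least 50. Genes called with 1 sign in all 4 fits were counted by a rule added after seeing the data. Same-numbered oxy-Hb and C3a libraries deviated together from their group means (correlations of 0.152, 0.320 and 0.266 over 10109 genes). Differently numbered pairs had correlations from -0.277 to 0.105. The numbers may thus pair the samples, but the labels name no shared batch, so the block was run as an alternative. The p-values of the fits without it ignore any such pairing. The fits behind the counts have no block, and the value with the replicate block stands beside a list's count where it moves it by over 1.5 times.

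Replicates differed by more than sampling noise (chi-square per gene from 5.54 to 10.9, and 71.0 and 63.6 for the pairs with C3a replicate 2). On simulated counts the fit of 9 libraries found 38%, 94%, 100% and 100% of changes of 1.5, 2, 3 and 4 times and made 5 false calls in 13935 genes. Without C3a replicate 2 it found 22%, 80%, 98% and 100% and made 4 in 14095. Both simulations used 1 spread for all genes, close to that of the fit of 9 libraries (15.8%), and held no library that stood apart. The real fit without C3a replicate 2 had a lower spread (10.4%), so these shares are not estimates for it.

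The members, the 23 gene lists and the tests were chosen with earlier results of these data known. Named genes were the 15 largest rises and falls called in both fits without overlap and with a mean of at least 5 CPM, the 15 largest changes in each direction among genes kept in each fit that left out 1 library, up to 4 called members per list (or 2 of lowest adjusted p where none was called), and C3ar1, C3, C5ar1, Hmox1 and globin genes as checks, 84 in all, of which the text gives those it turns on; a few genes are not reported here. Gene models without a symbol were counted, not named: 5 of the 15 largest rises and 2 of the falls. Other list members were named after their values were seen, from those called in either fit. Promoters came from RefSeq.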

Additional observations from a re-analysis of the deposited data

How the results depend on the processing

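The count of 558 calls with all libraries became 99 when only the 2 groups were fitted (1101 with C3a replicate 2 left out as well), 1033 with no count filter, 1353 with the DESeq2 Wald test (DESeq2 1.42.0), 101 at an adjusted p below 0.01, 1231 with the length and GC correction without C3a replicate 2, and 334 for calls in all 4 fits. Leaving out 1 library gave 54 to 1638. Without C3a replicate 2 the count of 1395 was 581 at an adjusted p below 0.01 and 434 to 1937 with a further library left out. The other alternatives stayed within 1.5 times of these counts: scaling to total counts, upper quartiles or DESeq2 size factors, limma-voom (limma 3.58.1) and a mean of at least 5 CPM. With the replicate number as a block, 835 genes were called with all libraries, 556 of the 558 among them, and 1567 without C3a replicate 2, and the block changed no call of a named gene, while it moved the counts of several lists upward.

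Of 1743 single-gene values under the alternatives, 1405 kept their direction and side of the threshold, 322 lost and 15 gained a call, and 1 turned: C3, at 0.14 on the log2 scale with all libraries, ranged from -0.0619 without C3a replicate 1 to 0.33 without C3a replicate 2. Without oxy-Hb replicates 1, 2 and 3, 57, 47 and 28 named genes lost their calls. In data simulated at the spread of the fit of 9 libraries, changes of 1.5 times were mostly missed. Why calls depend on single libraries was not tested.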
